A study of Mus musculus with 3 samples.

Results

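C1q macrophages were the kidney cells that carried RNA of all 3 chains of complement C1q and few UMIs (unique molecular identifiers, each standing for 1 captured RNA molecule) of the genes that mark the neighbouring cell types. A barcode was taken when it held at least 1672 UMIs and 200 genes with at most 50% of UMIs from mitochondrial genes, and when C1qa, C1qb and C1qc were all detected and summed to at least 5 UMIs. Cells with more than 1 UMI of Gpnmb, with 3 or more of the 7 genes Prg4, Alox15, F5, Selp, Vsig4, Tgfb2 and Garnl3, or with more than 2 UMIs of Lrp2, Slc34a1, Slc12a1 and Cd3g in sum were left out. The rule found 2349 cells among 48404 kept cells, which themselves came from 73281 deposited barcodes. Since the measured RNA chose these cells, the levels of the genes in the rule are given as a description, and no test was made of the cells against the rest.

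Macrophages are phagocytes that live in every tissue and are renewed in part from blood monocytes. C1q, the recognition molecule of the classical complement pathway, is a hexamer of units built from an A, a B and a C chain, and in many tissues macrophages rather than hepatocytes are its main source. In the mouse kidney, cells of this kind form the network of resident macrophages, which take up debris and immune complexes, present antigen on MHC class II and release chemokines after tubular injury. AOAH (acyloxyacyl hydrolase), the enzyme deleted in the mutant mice, is a lipase of phagocytes that removes acyl chains from lipopolysaccharide.

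The kidneys came from 2 mutant animals, Aoah-/- replicates 2 and 3, and from WT replicate 3, and were taken on day 14 after folic acid (FA), an agent that injures the tubules. Mice of both groups received FA and were 6 to 8 weeks old, and no uninjured kidney was among the libraries. The Aoah-/- mice lacked the gene in all cells, on a C57BL/6J background, and the WT mice were littermates. Kidneys were perfused, digested with collagenase and DNase at 37 degrees and cleared of erythrocytes by lysis, and 1 droplet library was made per mouse.

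The 3 libraries held 25516 barcodes with 167222984 UMIs (Aoah-/- mouse 2), 24693 barcodes with 161015021 UMIs (Aoah-/- mouse 3) and 23072 barcodes with 158551992 UMIs (WT mouse 3). C1q macrophages numbered 725, 1028 and 596 in the same order. Their median depth was 4442, 4693 and 4282 UMIs per cell in that order, and their median number of detected genes was 1518, 1566 and 1413.5. The median mitochondrial share was 5.47%, 5.18% and 6.86%. Depth was thus alike in the 3 libraries, and summing the cells gave 3869127, 5709505 and 3243447 UMIs. Between 171 and 176 barcodes were shared by each pair of libraries, and 0 C1q macrophages carried a barcode that was a C1q macrophage in another library.

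Levels are given as UMIs of a gene per 1000000 UMIs of the cells (CPM), listed in the order Aoah-/- mouse 2, Aoah-/- mouse 3, WT mouse. The assay counts each molecule at its 3′ end, so that a level is not scaled by transcript length. With 1 WT library the spread between WT mice is unknown, and no test across mice was made, cells of 1 mouse not being replicates. Exact Poisson and exact binomial (Clopper-Pearson) 95% intervals are therefore quoted for counting error alone, and differences between genotypes are given with the SD of the 2 Aoah-/- libraries.

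The 3 chains were at similar levels in all libraries. C1qa, the A chain, stood at 4429 CPM (95% interval 4363 to 4495), 4684 CPM (4628 to 4740) and 4619 CPM (4546 to 4694). C1qb was at 3664, 4736 and 4619 CPM, and C1qc at 2383, 2895 and 2676 CPM. In thick ascending limb cells, an epithelium, C1qa was at 8.38, 8.44 and 3.21 CPM, but these cells were themselves limited to at most 1 C1q UMI, so that the value is no measure of free RNA. The 3 genes lie side by side on the minus strand of chromosome 4 (GRCm38, GENCODE M21), with C1qb at chr4:136880129-136886187, C1qc at chr4:136889804-136893065 and C1qa at chr4:136895917-136898803.

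The 250 bases before the starts of C1qb and C1qc are shown because these genes define the cells. Sequences are from RefSeq on GRCm38.p6, minus strand, at chr4:136886201-136886450 and chr4:136892915-136893164. Capitals mark a match to GAGGAAG, a core of sites of the myeloid factor PU.1, on the opposite strand.
C1qb: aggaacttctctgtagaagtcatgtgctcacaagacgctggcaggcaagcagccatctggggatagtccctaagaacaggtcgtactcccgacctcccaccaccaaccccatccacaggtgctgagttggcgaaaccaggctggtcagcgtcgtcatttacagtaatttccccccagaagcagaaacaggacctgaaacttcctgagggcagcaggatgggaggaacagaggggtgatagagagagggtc
C1qc: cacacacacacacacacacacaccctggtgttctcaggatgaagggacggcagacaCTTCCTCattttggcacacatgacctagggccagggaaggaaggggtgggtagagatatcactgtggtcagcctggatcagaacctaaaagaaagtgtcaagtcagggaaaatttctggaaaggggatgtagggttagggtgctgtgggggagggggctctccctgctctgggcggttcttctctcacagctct
The start is that of the RefSeq transcript, which in C1qc lies inside the longer GENCODE span given above, and the match began 194 bases before it. Both strands of each window were searched for GAGGAAG, for GAAA repeated after 2 bases of any kind (an interferon regulatory factor motif) and for TATAAA (the TATA box), and C1qb held none of the 3. GAGGAAG was found in 10.6% of 32851 mouse promoter windows of this length, the GAAA repeat in 2.98% and TATAAA in 12.4%, so a match is a description of the window and not a site.

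The limits of the rule cut through different numbers of cells. Those with a C1q sum of 5 or 6 numbered 11, 30 and 8, and those just outside, with a sum of 3 or 4, numbered 10, 23 and 7. Ms4a7 was at 148, 62.7 and 48.3 CPM just inside and at 120, 12.8 and 25.3 CPM just outside, against 816, 919 and 698 CPM in the members with a sum of 7 or more. In Aoah-/- mouse 2, Ms4a7 was at 877 CPM in the 580 members with none of the 7 excluded genes, 717 CPM in the 95 members with 1, 160 CPM in the 50 members with 2, and 2.78 CPM in the 70 cells with 3, which the rule left out. Members with 2 of these genes numbered 0 in the other Aoah-/- mouse and 6 in the WT mouse. The limit on Lrp2, Slc34a1, Slc12a1 and Cd3g lay among many cells: 149, 205 and 68 members held 2 UMIs of these genes in sum, with Ms4a7 at 671, 794 and 654 CPM, and 65, 123 and 23 cells that met the rest of the rule were left out with 3 (689, 848 and 300.2 CPM).

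Aoah-/- mouse 2 stood apart in this respect before any comparison. It held 849 peritoneal-like macrophages (cells with 3 or more of the 7 genes, 5.50% of its kept cells), against 10 (0.0508%) in the other Aoah-/- library and 52 (0.392%) among WT cells. Transcripts of those cells also lay in its C1q macrophages. Prg4, a lubricin, was at 86.1, 0.175 and 9.56 CPM and the acute phase protein Saa3 at 534, 2.98 and 153 CPM. Slpi, an inhibitor of leukocyte proteases, was at 218, 15.2 and 69.7 CPM, and Fn1, fibronectin, at 590, 108 and 230 CPM. Without the members that held a UMI of any of the 7 genes, Saa3 was at 47.7, 3.15 and 1.66 CPM, Slpi at 28.6, 11.1 and 23.8 CPM, and Fn1 at 206, 96.7 and 73.5 CPM. The counts of genes past the fold and the monocyte and recruitment list are given with and without these members.

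The label of the cells was checked on genes that the rule did not use. Ms4a7, a membrane protein of tissue macrophages, was at 805 CPM (777 to 834), 902 CPM (878 to 927) and 694 CPM (666 to 723). Aif1 (Iba1, an actin-bundling protein) was at 686, 864 and 763 CPM. Csf1r, the receptor of the main macrophage growth factor, was at 654 CPM (629 to 680), 708 CPM (687 to 730) and 530 CPM (505 to 555). These levels were of the same order in every library, which does not by itself check the label. Adgre1, which encodes F4/80, was at 342, 316 and 275 CPM, and the fractalkine receptor gene Cx3cr1 at 462, 522 and 387 CPM. Mrc1, the mannose receptor, was at 239, 300 and 241 CPM, and Lyz2, lysozyme, at 6803, 7040 and 6631 CPM.

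**Figure D1:**
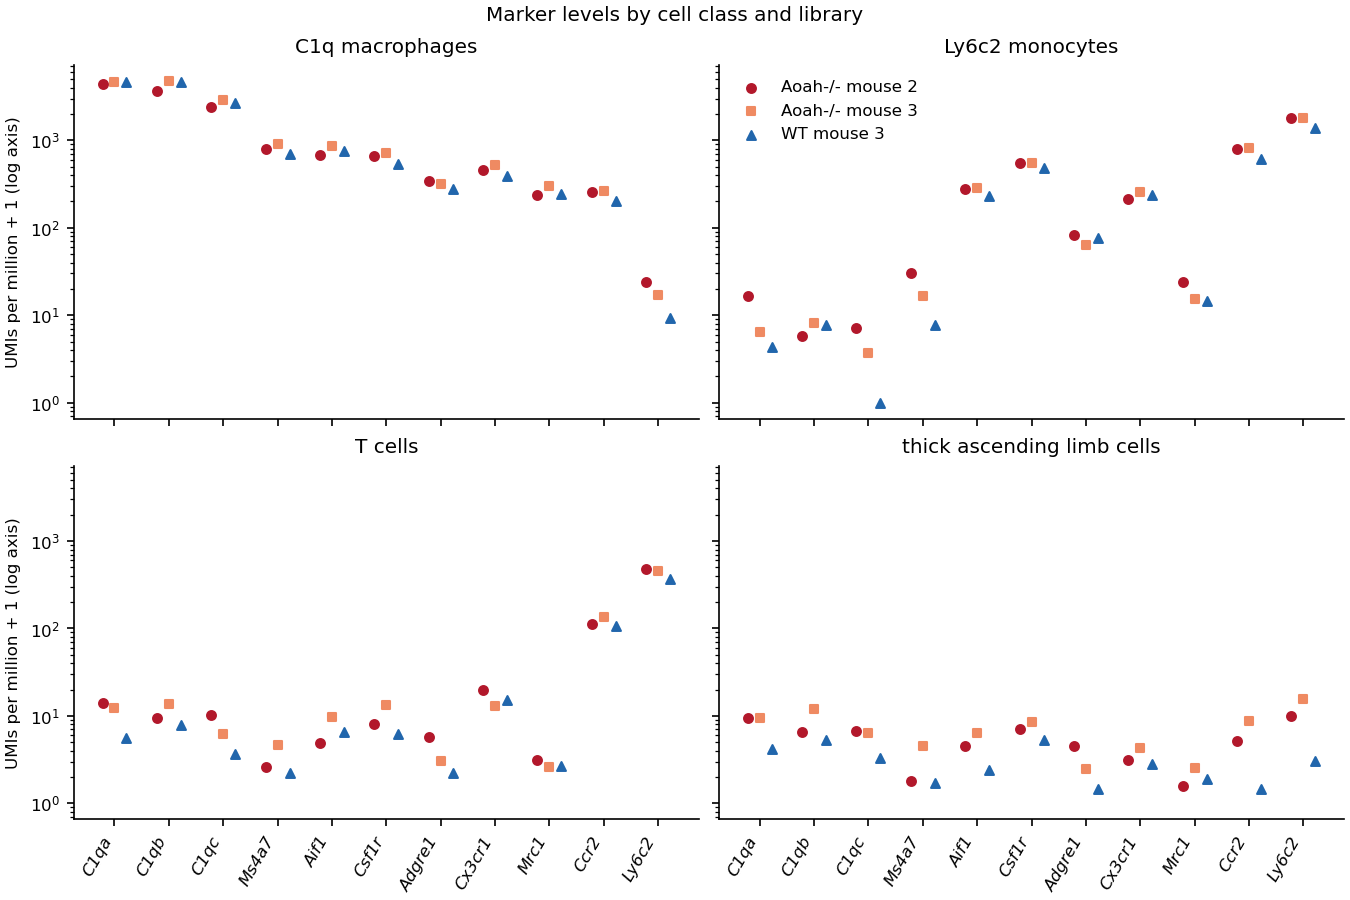
Levels of 11 marker genes (CPM + 1, log axis) in C1q macrophages, Ly6c2 monocytes, T cells and thick ascending limb cells, 1 point per library (red circles Aoah-/- mouse 2, orange squares Aoah-/- mouse 3, blue triangles WT mouse 3). Ms4a7 and Cx3cr1 lie highest in C1q macrophages, where Ly6c2 lies lowest of the 11 genes, and the contrast in the C1q chains was set by the gates, which limited the other 3 classes to at most 1 C1q UMI per cell.

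Per cell, the markers were compared after every cell had been thinned to 1672 UMIs. Ms4a7 then had a UMI in 56.0%, 63.1% and 55.9% of C1q macrophages (74.3%, 80.1% and 74.7% unthinned), against 0.361%, 1.48% and 0.214% of thick ascending limb cells, whose median depth was 9811.5, 6834.5 and 8042 UMIs before thinning. Aif1 was seen in 61.7%, 68.0% and 64.4%, Csf1r in 61.8%, 62.9% and 51.2%, and Adgre1 in 44.8%, 40.5% and 34.9%. The shares of Csf1r and Adgre1 were lower in the WT mouse than in both Aoah-/- mice. Cells that met the rule but lacked a UMI of one of these genes at this depth were therefore common, and lack of a UMI was not read as lack of expression. In thinned Ly6c2 monocytes, Ms4a7 was seen in 4.03%, 2.69% and 1.04%, Aif1 in 33.6%, 35.5% and 22.9%, and Csf1r in 66.4%, 54.3% and 61.5%. Ms4a7 thus set the C1q macrophages apart from these monocytes, while Csf1r did not.

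Markers of other lineages were given as summed lists, some of which held genes that the rule caps. The 16 proximal tubule genes summed to 2395, 2530 and 2026 CPM, with Kap the most abundant (845, 1117 and 898 CPM), whereas the same sum in T cells, which do not make these RNAs, was 10191.5, 12926 and 13667 CPM. Without Lrp2 and Slc34a1, which the rule limited in C1q macrophages, the other 14 genes summed to 2265, 2410 and 1927 CPM against 9430, 12081 and 12833 CPM. The T cells had no such limit, so cells rich in tubule RNA could stay among them but not among C1q macrophages. Leaving Lrp2 and Slc34a1 out of the sum does not undo this, and the contrast is no measure of free RNA. Kap had a UMI in 72.3%, 71.9% and 73.3% of thinned C1q macrophages and in 80.0%, 81.9% and 84.5% of thinned T cells. The 10 T cell genes summed to 72.6, 82.1 and 49.3 CPM, led by Cd4 in both Aoah-/- libraries and by Il7r in the WT library. The rule capped Cd3g in C1q macrophages and the T cells were gated on CD3 genes, and the 7 genes of the list outside CD3 were at 61.5, 67.8 and 47.5 CPM against 1630, 1740 and 1650 CPM in T cells. The 7 B cell genes summed to 143, 65.2 and 86.9 CPM and the 9 NK cell genes to 180, 263 and 234 CPM, with Cd79b and Ccl5 the most abundant in every library. The 11 endothelial genes summed to 159, 173 and 75.8 CPM, led by Flt1, Emcn and Plpp3 in turn. The 9 fibroblast genes summed to 116, 217 and 178 CPM, led by Mgp in the Aoah-/- libraries and by Dcn in the WT library. The 10 neutrophil genes summed to 230, 420 and 158 CPM, led by S100a9, and lay somewhat above the 202, 339 and 110 CPM of T cells of the same libraries. No cells of the B, NK, endothelial, fibroblast or neutrophil lineage were gated, so their own levels are not set beside these sums.

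Dendritic cell genes were not low as lists. The 10 genes of type 1 dendritic cells summed to 4787, 4664 and 5009 CPM, led by Cst3, which macrophages also express. Xcr1, the defining receptor of these cells, was at 4.14, 2.98 and 4.62 CPM and had a UMI in 0.966%, 0.389% and 0.503% of thinned members. The 10 genes of type 2 and mature dendritic cells summed to 482, 561 and 526 CPM, with Sirpa the most abundant in Aoah-/- mouse 2 and Mgl2 in the others. The 8 genes of plasmacytoid dendritic cells, led by the widely expressed Bst2, summed to 982, 1311 and 908 CPM. The 8 platelet genes, led by Pf4, summed to 238, 278 and 267 CPM. No gene of the 13 lists of other lineages was at 0 in all members. How many members were droplets with another cell was not measured, since no doublet caller was run.

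Among the most abundant RNAs were those of lipid transport and antigen presentation. Apoe, the lipid carrier of macrophages, stood at 21014, 22694 and 15571 CPM and Cd74, the invariant chain of MHC class II, at 17687, 18853 and 20725 CPM. H2-Ab1, a class II β chain, was at 9870, 10747 and 11142 CPM. The other genes among the 10 with the highest mean level were Tmsb4x, Fth1, Malat1, the mitochondrial genes mt-Atp6, mt-Co3 and mt-Co2, and Gm42418. Gm42418, a locus that overlaps ribosomal RNA, was highest of all at 50779, 31265 and 27564 CPM and was as high in the other kept cells (44355, 34042 and 25909 CPM).

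Against all other kept cells, genes were ranked by the lowest ratio of the 3 libraries, and chemokine genes, class II genes, the C1q chains and macrophage receptors were among the highest. Ccl4 and Ccl3, inflammatory chemokines of the CC family, led by this rank, with log2 ratios of 4.996, 4.70 and 6.46 for Ccl4 and 5.03, 4.61 and 6.42 for Ccl3. They did not lead in each library: Ms4a7 exceeded both in Aoah-/- mouse 2, and C1qa (5.10), C1qb (5.10) and C1qc (5.02) did so in Aoah-/- mouse 3. Ms4a7 followed at 5.28, 4.59 and 5.52, Ccl12 at 4.73, 4.52 and 5.43, and Apoe at 4.45, 4.50 and 5.26. Next came C1qb, H2-Eb1, Aif1, C1qa, Cx3cr1, Cd72, H2-Aa, Cd74, H2-Ab1, Mrc1, Cd83, C1qc, Slamf9, Ctss and Lilra5. Lilra5 had the smallest ratio of the 20, at 3.75, 3.75 and 3.96.

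Ly6c2 monocytes (149, 186 and 96 cells) were the nearest blood-derived class. Apart from the C1q chains, 4 of the 5 genes highest in C1q macrophages against them were chemokine genes, and Cd72 was the other. Ccl3 was at 2195, 2374 and 3674 CPM in C1q macrophages and at 37.6, 63.3 and 57.5 CPM in monocytes. Ccl4 was at 5502, 6205 and 9144 CPM against 113, 240 and 108 CPM, Ccl12 at 371, 410 and 511 CPM against 4.85, 0.905 and 1.69 CPM, and Ccl7 at 203, 203 and 328 CPM against 0, 0 and 1.69 CPM. Cd72, a coreceptor-like inhibitor, was at 376, 420 and 432 CPM against 7.27, 5.43 and 3.38 CPM.

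Lower in C1q macrophages than in monocytes were genes of the inflammatory monocyte. Ly6c2 was at 23.3, 15.9 and 8.32 CPM against 1797, 1801 and 1380 CPM, which includes the gene that chose the monocytes. Plac8 was at 116, 74.3 and 43.8 CPM against 5254, 5273 and 4310 CPM, and Chil3 at 11.6, 2.80 and 1.23 CPM against 624, 701 and 470 CPM. Hp, Retnlg, Gsr, S100a9 and S100a8 made up the rest of the 8 lowest genes.

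Peritoneal-like macrophages, which also carried C1q RNA (C1qa at 2463, 2449 and 3823 CPM), lacked several genes of the C1q macrophages. Ms4a7 was at 3.43, 0 and 0 CPM in them, Cd72 at 2.57, 0 and 2.19 CPM, Ccl12 at 2.57, 0 and 6.58 CPM, and Cx3cr1 at 3.26, 0 and 8.78 CPM. Mmp12, macrophage elastase, was at 264, 236 and 437 CPM in C1q macrophages against 1.89, 0 and 0 CPM. Only 10 peritoneal-like cells stood behind the values of Aoah-/- mouse 3. AF251705, Itgb5 and Basp1 completed the 8 genes highest in C1q macrophages. The 8 genes lowest in them were Serpinb2, Alox15, Prg4, Slpi, Selp, Tgfb2, F5 and Ltbp1, of which Alox15, Prg4, Selp, Tgfb2 and F5 were part of the rule.

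Gpnmb macrophages were too few for more than a description (9, 41 and 9 cells) and were deeper, with a median of 20056, 10373 and 12189 UMIs. Fabp5, a fatty acid binding protein, was at 156, 183 and 87.9 CPM in C1q macrophages against 2955, 3639 and 2663 CPM. Ctsd, a lysosomal protease, was at 805, 901 and 555 CPM against 5114, 9438 and 6161 CPM, and Spp1, osteopontin, at 716, 483 and 591 CPM against 3586, 4600 and 4995 CPM. Higher in C1q macrophages were the heat shock genes Hspa1a (1785, 2082 and 2299 CPM against 16.0, 94.99 and 113 CPM) and Hspa1b, the chemokine genes Ccl12 and Ccl4, and 4 haemoglobin genes. Mfge8, Adam8, Il7r and Anxa1 were also lower in C1q macrophages.

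The C1q macrophages varied among themselves along Ccr2, Cx3cr1 and Mrc1. After thinning to 1672 UMIs, a UMI of Ccr2, the receptor by which monocytes leave the marrow, was found in 19.7%, 20.8% and 19.5% of cells. Cx3cr1 was found in 48.0%, 47.9% and 40.4%, and Mrc1 in 29.4%, 33.7% and 25.2%. The Ccr2 share was alike in the 3 libraries, while the Cx3cr1 share was lower in the WT mouse, with an interval of 36.5 to 44.5% against 44.3 to 51.7% and 44.8 to 51.0%.

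Cells with a Ccr2 UMI carried more RNA of monocyte genes. The log2 ratio to cells without one was 2.61, 1.62 and 2.24 for Plac8, 1.99, 1.47 and 0.70 for Ly6c2, and 1.25, 1.39 and 2.20 for S100a4. The growth factor gene Igf1 went the other way (-1.51, -1.30 and -1.58), as did Apoe (-0.51, -0.33 and -0.70) and Ccl4 (-0.92, -0.56 and -0.68). The C1q chains differed little (-0.19, -0.12 and -0.21), and the class II list stayed within 0.11 of 0 in every library. Cells with a Ccr2 UMI were also deeper before thinning, at a median of 5906, 5997 and 5441 UMIs against 4215, 4417 and 4130 UMIs.

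Cells with a Cx3cr1 UMI showed the opposite side of several of these genes. Their log2 ratio to the other cells was 0.41, 0.41 and 0.26 for the C1q chains, 0.56, 0.46 and 0.37 for Apoe, and 0.56, 0.36 and 0.68 for the lipid receptor gene Trem2. It was -1.07, -0.85 and -1.47 for Mmp12 and -3.52, -2.996 and -5.14 for Retnla, a secreted marker of alternative activation. Retnla was found in only 31, 16 and 40 members, and 10 cells held 93.8%, 97.7% and 77.5% of its UMIs, so that its ratio rests on few cells. The list of monocyte and recruitment genes was lower in cells with a Cx3cr1 UMI (-1.78, -1.03 and -0.77), and without the members that held a UMI of any of the 7 peritoneal genes its ratio was -1.03, -1.07 and -0.39. Cells with an Mrc1 UMI had more Ccl2 (0.79, 1.00 and 1.04) and Igf1 (0.44, 0.81 and 1.18) and less Mmp12 (-0.40, -0.84 and -1.11).

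Cells with RNA of the division genes Mki67 and Top2a were a small share. A UMI of Mki67 or Top2a was present after thinning in 40 cells (5.52%, 3.97 to 7.44%), 51 cells (4.96%, 3.72 to 6.47%) and 30 cells (5.03%, 3.42 to 7.11%). Mki67 alone was seen in 2.90%, 2.43% and 3.52% of C1q macrophages, against 0.601%, 0.886% and 0.428% of thinned thick ascending limb cells, and Top2a in 3.45%, 3.31% and 2.52% against 0.361%, 0.689% and 0 of 467 cells (exact 95% interval up to 0.787%). Stmn1, which regulates microtubules in mitosis, was higher in these cells by a log2 ratio of 2.07, 2.48 and 2.84, and Tubb5 by 1.26, 1.81 and 1.82. Cd74 was lower in them (-0.55, -0.53 and -0.25). The C1q chains were within 0.07 of the other members.

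The comparison of genotypes asked how C1q macrophages of Aoah-/- mice differed from those of the WT mouse after FA. Their share of kept cells was 4.70% (4.37 to 5.04%) and 5.22% (4.91 to 5.54%) in the Aoah-/- mice and 4.49% (4.14 to 4.86%) in the WT mouse. The Aoah-/- mean exceeded the WT value by 0.467 percentage points, with an SD of 0.371 points between the Aoah-/- mice, and the interval of Aoah-/- mouse 2 overlapped that of the WT mouse. The direction turned with the cells counted as the whole: the difference was -0.842 points among cells without Lrp2, Slc34a1 or Slc12a1 and -3.09 points among cells with a UMI of the leukocyte gene Ptprc. No order of the genotypes can be read from these shares.

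Aoah itself gave 11, 21 and 73 UMIs in the C1q macrophages, or 2.84 CPM (1.42 to 5.09), 3.68 CPM (2.28 to 5.62) and 22.5 CPM (17.6 to 28.3). Both Aoah-/- libraries lay below the WT library, with a log2 difference of -1.74 (SD 0.10) on log2(CPM + 5). In thick ascending limb cells Aoah was at 1.75, 1.33 and 5.27 CPM and in all other kept cells at 6.91, 6.31 and 18.2 CPM, so both Aoah-/- libraries lay below the WT library there too. The gene lies at chr13:20794113-21036617 on the plus strand, and since counting was at the 3′ end and the deleted part was not given in the sources used here, the remaining UMIs do not bear on the protein. All 3 mice carried Ddx3y RNA (93.8, 82.0 and 89.7 CPM) and the female transcript Xist gave 0, 0 and 1 UMI, so the 3 mice were alike in these transcripts of the sex chromosomes.

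Genes were compared on log2(CPM + 5), which understates the change of low genes, over the 3934 genes that reached 30 CPM in either genotype and 20 UMIs in all. The libraries were alike over these genes: the median difference was 0.06, and across genes Pearson's r was 0.981 between the Aoah-/- libraries and 0.973 and 0.968 between each of them and WT, genes not being independent replicates. A gene was counted as past the fold when both Aoah-/- libraries differed from WT by at least 2-fold in the same direction. Both differences share the single WT library, so that a value particular to that mouse enters both. By this rule 7 genes (0.178%) were higher and 22 genes (0.559%) lower in Aoah-/- C1q macrophages. Without the members that held a UMI of any of the 7 peritoneal genes, 5 genes were higher and 20 lower, of which 2 and 17 were among the 7 and 22. The lower genes numbered 13 with the mean of values per cell and 14 without the 10% of members with the most UMIs. Among members without UMIs of other lineages (only 154, 151 and 41 cells) the balance turned, with more genes higher than lower. Both counts rose with 1 Aoah-/- library left out, since 1 library then had to pass the fold.

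Among the lower genes were Cd209f, Folr2 and F13a1, which are known from perivascular and long-lived tissue macrophages. Cd209f, a C-type lectin of the SIGN family, was at 0.517 CPM (0.0626 to 1.87), 1.40 CPM (0.605 to 2.76) and 140 CPM (128 to 154). Folr2, the folate receptor β, was at 8.01 CPM (5.44 to 11.4), 5.60 CPM (3.83 to 7.91) and 112 CPM (100.4 to 124), with a log2 difference of -3.31 (SD 0.21). F13a1, the A subunit of factor XIII, was at 17.6, 6.66 and 95.9 CPM (-2.64, SD 0.67), and was higher in Ly6c2 monocytes of the same libraries (199.9, 251 and 296 CPM). In each of these 3 genes the WT mouse lay far above both Aoah-/- mice. For Cd209f the Aoah-/- levels were close to those of a count of 3 UMIs (0.775 CPM and 0.525 CPM in these libraries).

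Retnla was at 275 CPM (259 to 292), 45.9 CPM (40.5 to 51.8) and 1626 CPM (1583 to 1671), a difference of -3.77 with an SD of 1.74, and the Aoah-/- mice lay far from each other. Clec10a, a galactose-binding lectin, was at 20.9, 20.8 and 67.2 CPM (-1.48, SD 0.0036), and Ccl8, a ligand of CCR2 and other receptors, at 162, 168 and 353 CPM (-1.08, SD 0.04). Both Aoah-/- mice agreed closely for Clec10a and Ccl8 and not for Retnla.

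**Figure D2:**
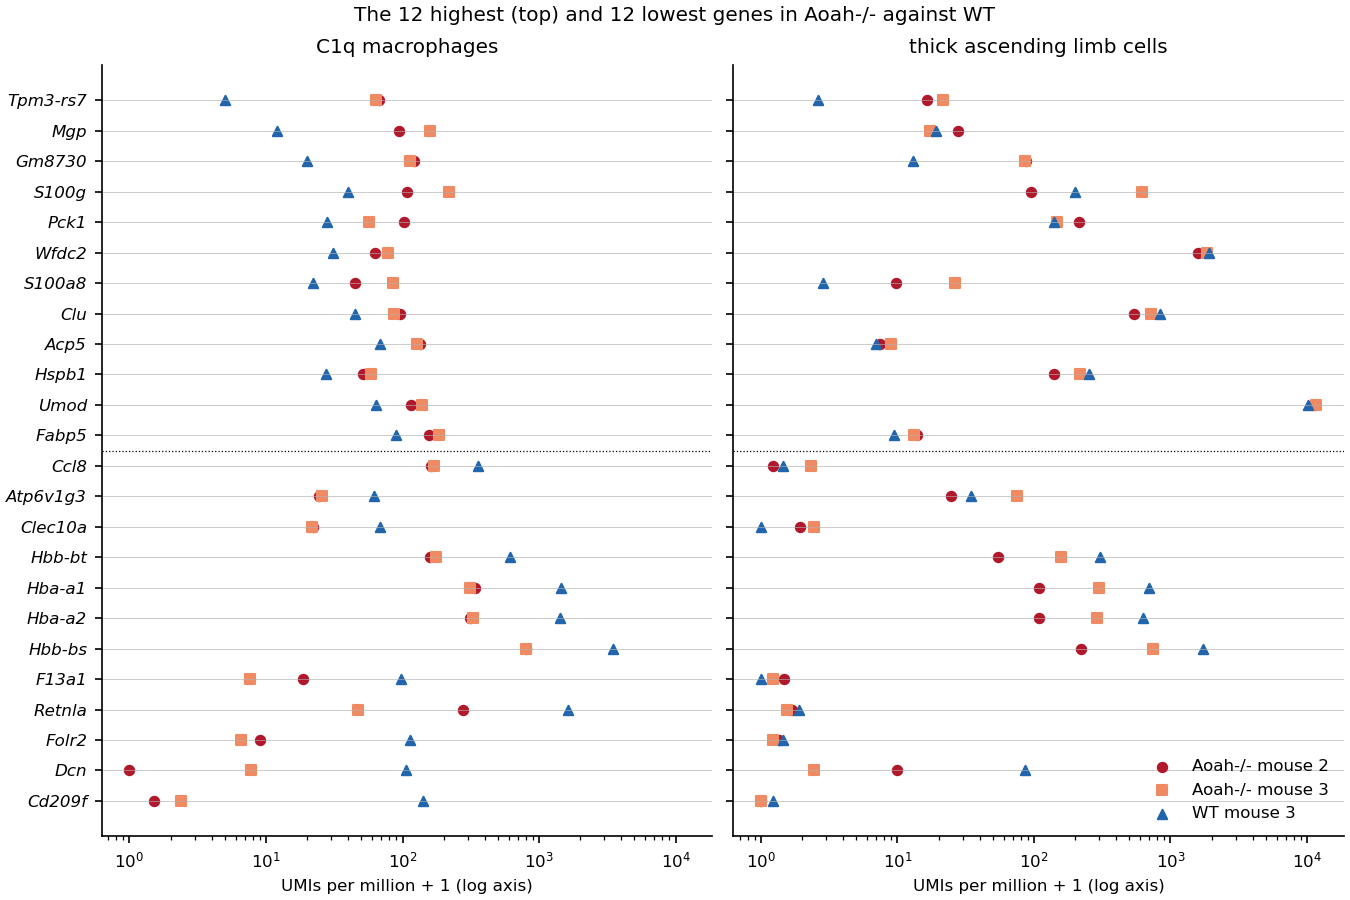
Levels (CPM + 1, log axis) of the 12 genes highest (above the dotted line) and the 12 lowest in Aoah-/- against WT, drawn from genes of 50 CPM or more in either genotype in which the Aoah-/- library nearer to WT differed from it by more than the Aoah-/- libraries differed from each other, in C1q macrophages (left) and thick ascending limb cells (right), 1 point per library. Cd209f, Folr2 and Retnla are separated between genotypes on the left, while Tpm3-rs7, Gm8730, Dcn and the haemoglobin genes are separated on both sides.

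Most of this group lay in few WT cells. Cells with a UMI of at least 2 of Folr2, Cd209f and F13a1, a grouping chosen after the values were seen, numbered 6 of 725 (0.828%, 0.304 to 1.79%), 3 of 1028 (0.292%, 0.0602 to 0.850%) and 22 of 596 (3.69%, 2.33 to 5.54%). In the WT mouse 13 of the 22 held all 3 genes, and their median depth was 7980.5 UMIs against 4282 over all members. After thinning to 1672 UMIs the numbers were 2 (0.276%, 0.0334 to 0.993%), 2 (0.195%, 0.0236 to 0.701%) and 16 (2.68%, 1.54 to 4.32%). The WT interval stayed above both others, but the cells were chosen on the genes that differed, and 1 WT mouse stands behind the value.

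Of the WT UMIs of the lower genes, over 50% came from these 22 cells for 11 of the 22 genes. All UMIs of Cd209f and of its relatives Cd209d and Cd209g lay in them, 99.7% of Folr2, 97.0% of Cd163, 96.7% of Lyve1, 95.8% of F13a1, 95.02% of Fcna, 89.5% of Cbr2, 83.6% of Retnla (4410 of 5275 UMIs) and 69.3% of Clec10a. Cd209d, Cd209g and Fcna are outside the rule for named genes and were named after their values were seen, while Cd163, Lyve1 and Cbr2 are members of the residence list. How reads of the related Cd209 genes were assigned among them in the counting was not examined. Without these cells in any library, 12 of the 22 genes were no longer past the fold, and 10 remained. Of the 12, 10 had fallen under the minimum level and were no longer compared, while Retnla and Ccl8 were compared and below the fold in at least 1 Aoah-/- mouse.

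**Figure D3:**
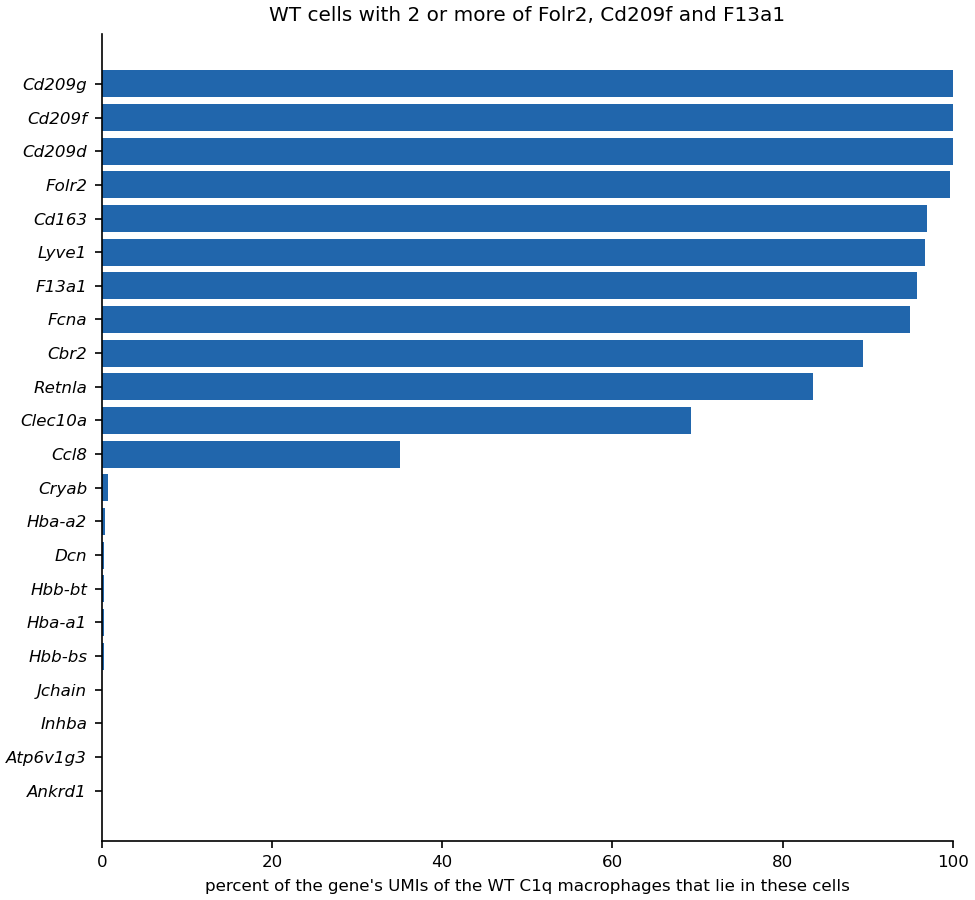
Share of the WT UMIs (percent, from 0) of each of the 22 genes lower in Aoah-/- that lay in the 22 WT cells with at least 2 of Folr2, Cd209f and F13a1, 1 bar per gene. The bars pass 50% for 11 genes and are under 1% for Dcn and Hbb-bs.

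The 22 WT cells also differed from the other WT members in genes that did not choose them. Cx3cr1 was at 78.9 CPM against 406 CPM, Ccl4 at 416 against 9688 CPM, Il1b at 163 against 5976 CPM and Cd74 at 7465 against 21550 CPM. Higher in them were Mrc1 (1221 against 180 CPM), Pf4 (1426 against 166 CPM), Gas6, a bridge to apoptotic cells (631 against 33.1 CPM), and Timd4, a receptor for phosphatidylserine (142 against 0.983 CPM, in 11 of the 22 cells). C1qa was at 6908 against 4477 CPM and Ms4a7 at 268 against 721 CPM. In the 6 and 3 such cells of the Aoah-/- mice C1qa was instead lower than in the other members (3003 against 4449 CPM and 4056 against 4685 CPM). Dcn (5.26 against 111 CPM) and Hbb-bs (126 against 3703 CPM) were lower in them.

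Cd209f and Cd209g are shown with the 250 bases before their starts because all their WT UMIs fell in the same 22 cells. Sequences are from RefSeq on GRCm38.p6, for Cd209f on the minus strand at chr8:4105765-4106014 and for Cd209g on the plus strand at chr8:4134486-4134735. Capitals mark a TATAAA match.
Cd209f: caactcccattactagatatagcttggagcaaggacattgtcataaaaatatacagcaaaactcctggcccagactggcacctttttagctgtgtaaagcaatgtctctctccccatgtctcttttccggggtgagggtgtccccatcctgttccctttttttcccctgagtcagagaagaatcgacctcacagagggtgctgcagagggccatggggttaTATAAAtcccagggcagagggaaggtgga
Cd209g: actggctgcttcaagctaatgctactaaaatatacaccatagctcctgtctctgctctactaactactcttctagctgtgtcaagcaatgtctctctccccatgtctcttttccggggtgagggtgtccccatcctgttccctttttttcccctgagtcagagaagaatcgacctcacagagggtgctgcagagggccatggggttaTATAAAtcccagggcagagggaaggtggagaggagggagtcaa
Starts are again those of the RefSeq transcripts, and that of Cd209f lies inside the GENCODE span of the gene. The TATAAA match lay 29 bases before the start in Cd209f and 43 bases before it in Cd209g, and neither window matched GAGGAAG or the GAAA repeat. The windows shared a run of 154 identical bases, which began 154 bases before the start of Cd209f and 168 bases before that of Cd209g.

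Haemoglobin genes and Dcn were also lower in Aoah-/- thick ascending limb cells and T cells. Hbb-bs, a haemoglobin chain, was at 801, 800 and 3493 CPM, and the 8 erythroid genes summed to 1624, 1622 and 6985 CPM, with 4 of 4 compared genes past the fold (Hbb-bs, Hbb-bt, Hba-a1 and Hba-a2, which are near-identical in pairs). Over all 3934 genes, 0.559% were past the fold downwards. The erythroid sum was 525, 1522 and 3401 CPM in thick ascending limb cells and 3121, 3361 and 5646 CPM in T cells of the same libraries. Ly6c2 monocytes did not follow this order for every gene, with Hbb-bt at 100.6, 17.2 and 50.7 CPM and Hba-a1 at 275, 37.1 and 294 CPM. In the WT mouse 94.4% of the Hbb-bs UMIs lay in 10 members. Dcn, the fibroblast proteoglycan decorin, was at 0, 6.83 and 105 CPM in C1q macrophages and at 2.45, 0.114 and 222 CPM in T cells, and 95.01% of its WT UMIs in C1q macrophages lay in 10 members. The part that free RNA or attached cells had in these differences was not tested.

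Jchain, the joining chain of antibodies, had the widest difference of the genes past the fold (77.3, 2.28 and 676 CPM, -4.80, SD 2.47). Jchain, Ankrd1, Cryab and Inhba, named after their values were seen, were past the fold with UMIs in few cells as well. Jchain was detected in 10 WT members and Ankrd1 in 2. Atp6v1g3, a proton pump subunit of intercalated cells, was at 23.3, 24.7 and 60.4 CPM, and 95.9% of its WT UMIs lay in 10 members. Its direction was not stable: among members without UMIs of other lineages it was higher in Aoah-/- cells.

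The 7 higher genes included S100g, Egf and Tmem52b, genes of the distal tubule. Mgp, matrix Gla protein, was at 92.5, 158 and 11.1 CPM (2.97, SD 0.53) and S100g, a calcium-binding protein, at 107, 217 and 39.2 CPM. Both were concentrated in few members: 10 cells held 95.8% and 88.2% of the Mgp UMIs and 72.2% and 74.8% of the S100g UMIs of the Aoah-/- mice. Tpm3-rs7 (66.2, 62.7 and 4.01 CPM) and Gm8730 (121, 112 and 19.1 CPM) are copies of other genes, so that their reads can be shared with those, and they differed the same way in thick ascending limb cells (15.6, 20.5 and 1.60 CPM, and 86.7, 85.5 and 11.9 CPM). The others were Egf, a member of the thick ascending limb and distal tubule list, and Tmem52b and Tm4sf1, which were named after their values were seen. Among genes that were low in thick ascending limb cells, 0 of 609 compared were past the fold upwards and 11 downwards.

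Of the 12 highest genes by the rule for named genes, 8 were below the fold, among them Acp5 and Fabp5, which macrophages make. Acp5, the tartrate-resistant acid phosphatase, was at 133, 127 and 66.9 CPM (0.91, SD 0.05), against 6.52, 8.00 and 5.96 CPM in thick ascending limb cells. Fabp5 was at 156, 183 and 87.9 CPM (0.90, SD 0.16), against 12.9, 12.3 and 8.48 CPM in the same epithelium. Fabp5 had the same order of libraries in all other kept cells (71.0, 76.2 and 33.8 CPM) and in Ly6c2 monocytes (90.9, 119 and 72.7 CPM), while Acp5 was at 31.3, 36.3 and 31.3 CPM in all other kept cells. That both differences exceed the gap between the Aoah-/- mice was a condition of the rule for named genes. Umod, the uromodulin of the thick ascending limb, was at 114, 138 and 62.9 CPM, Clu at 95.6, 85.6 and 44.1 CPM, Hspb1 at 50.4, 58.0 and 26.5 CPM and S100a8 at 43.7, 84.6 and 20.97 CPM, and Pck1 and Wfdc2, which tubule cells express, were the last. The thick ascending limb and distal tubule list summed to 390, 565 and 298 CPM in C1q macrophages, and its part in these genes was not tested.

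Pathways were described by 26 gene lists, whose summed levels are compared here on the log2 scale. Over all 3934 genes, 48.8% were above WT in both Aoah-/- libraries and 27.7% below it in both. Past the fold were 0.178% of these genes upwards and 0.559% downwards, and the counts of each list stand beside these shares. Chemokine genes as a sum were lower in Aoah-/- cells (-0.45 and -0.48 for mice 2 and 3), with 9 of 18 compared genes below WT in both libraries, 3 above in both, and Ccl8 alone past the fold. Without the members that held a UMI of any of the 7 peritoneal genes, 2 of 18 compared genes were past the fold downwards. Without the cells with 2 or more of Folr2, Cd209f and F13a1, Ccl8 was at 160, 167 and 244 CPM and no longer past the fold. The median gene of the list differed by -0.29.

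Of the chemokine genes C1q macrophages express most, Ccl4 and Ccl3 were lower in both Aoah-/- mice and Cxcl2 was not. Ccl4 was at 5502 CPM (5428 to 5576), 6205 CPM (6140 to 6270) and 9144 CPM (9041 to 9249), a difference of -0.65 (SD 0.12). Ccl3 differed by -0.69 (SD 0.08). The monocyte attractant Ccl2 was at 474, 493 and 728 CPM (-0.58, SD 0.04) and its relative Ccl7 at 203, 203 and 328 CPM (-0.68, SD 0.001). Both Aoah-/- mice were below the WT mouse in each of these, by less than 2-fold. Cxcl2 (3466, 2751 and 3346 CPM) and Cxcl16 (696, 745 and 689 CPM) had Aoah-/- values on either side of WT or close to it.

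Chemokine receptors went the other way, with 5 of 6 compared genes above WT in both Aoah-/- libraries and a sum higher by 0.23 and 0.32. The sum was higher in Ly6c2 monocytes (1499, 1523 and 1167 CPM), peritoneal-like macrophages (1540, 2465 and 979 CPM) and T cells (580.1, 546 and 495 CPM) of both Aoah-/- libraries as well. It was lower in both in the few Gpnmb macrophages (983, 1480 and 2194 CPM). Ccr2 was at 256, 263 and 202 CPM (0.35, SD 0.03), Cx3cr1 differed by 0.34 (SD 0.13) and Cxcr4 by 0.40 (SD 0.24). None was past the fold. Of the cytokines, Il1b was at 4775, 4328 and 5635 CPM, Tnf at 349, 316 and 410 CPM, and Il10, an inhibitory cytokine, at 25.3, 20.8 and 34.8 CPM, all lower in both Aoah-/- mice. Igf1 (76.8, 86.9 and 57.0 CPM) and Osm (129, 126 and 92.5 CPM) were higher in both. In the list of cytokines and growth factors, 7 of 22 compared genes were below WT in both libraries and 7 above it in both. The sum of the list differed by -0.07 and -0.25.

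Genes of lipid handling and of the lysosome were higher as sums. The lipid list was higher by 0.39 and 0.49, with 8 of 15 compared genes above WT in both libraries and 5 below, because Apoe made up most of the sum (0.49, SD 0.08). Apoe had the same order of genotypes in all other kept cells (951, 996 and 396 CPM). The lipid sum was also higher in both Aoah-/- libraries in T cells (762, 882 and 746 CPM) and thick ascending limb cells (832, 897 and 793 CPM). It was lower in both in Ly6c2 monocytes (4217, 4041 and 4370 CPM) and peritoneal-like macrophages (11882, 12515 and 22721 CPM). The cholesterol exporter Abca1 was at 124, 116 and 82.0 CPM (0.52, SD 0.07) and Trem2 at 193, 214 and 150 CPM (0.42, SD 0.10). In the lysosome list 21 of 27 compared genes were above WT in both libraries and the sum was higher by 0.17 and 0.20. The sum of the list was also higher in both Aoah-/- libraries in T cells (3294, 3273 and 2806 CPM), in Ly6c2 monocytes (12046, 11848.5 and 11403 CPM) and in peritoneal-like macrophages (16222, 14332 and 13536.5 CPM). In thick ascending limb cells (4110, 4547 and 4246 CPM) and Gpnmb macrophages (28463, 41134 and 36122 CPM) Aoah-/- mouse 2 lay below the WT mouse and mouse 3 above it. Ctsd was at 805 CPM (777 to 833), 901 CPM (876 to 926) and 555 CPM (530 to 582), a difference of 0.61 (SD 0.11), Ctsb at 1556, 1796 and 1295 CPM, Psap at 2342, 2164 and 1916 CPM, and Lgmn at 611, 607 and 490 CPM. All 4 were below the fold.

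**Figure D4:**
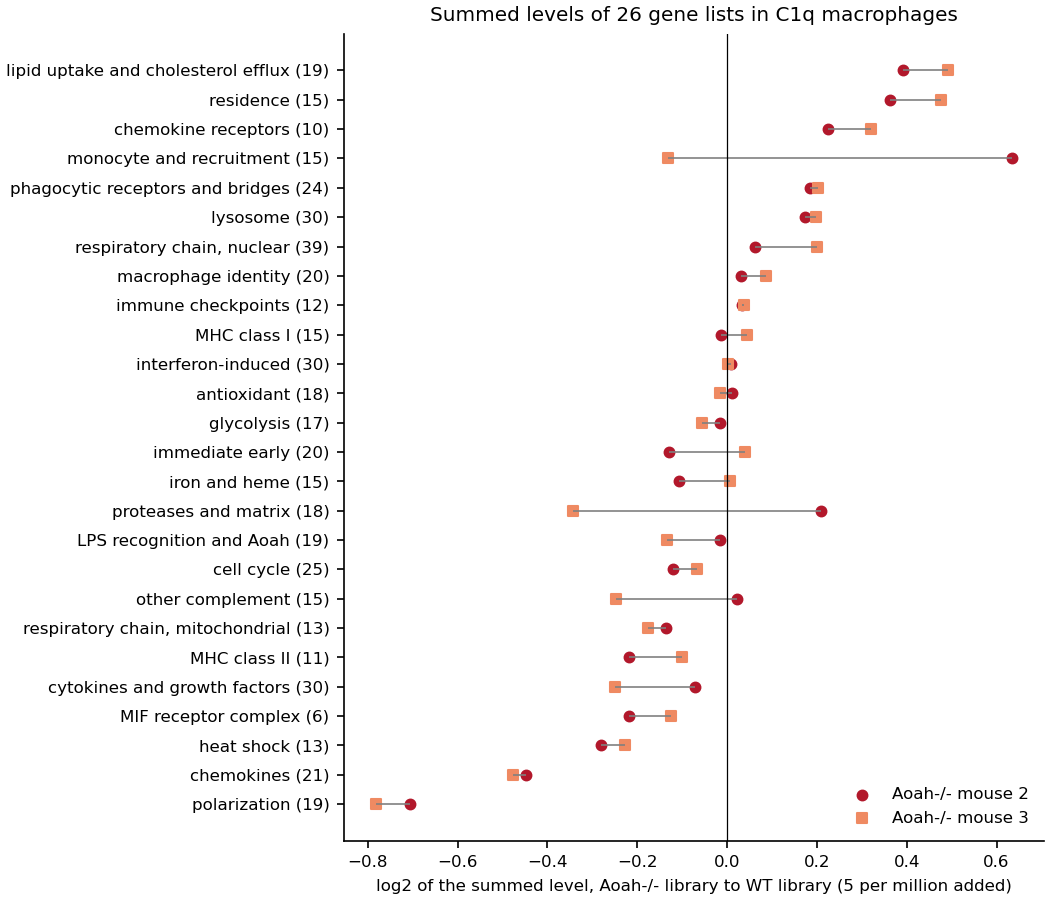
Log2 ratio of the summed level of each of 26 gene lists in C1q macrophages, each Aoah-/- library (red circle mouse 2, orange square mouse 3) to the WT library, with the number of genes in brackets and a grey line joining the mice. The polarization list lies lowest in both mice, the lipid and residence lists lie above 0.3 in both, and the monocyte and recruitment list has the highest single point (0.63, mouse 2) and lies at -0.13 in mouse 3.

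Antigen presentation differed little. The class II list was lower as a sum (-0.22 and -0.10), with 6 of 7 compared genes below WT in both libraries, among them Cd74 and H2-Aa (9404, 10018 and 11038 CPM). Class I genes (-0.01 and 0.04) and interferon-induced genes (0.01 and 0.00) were near the WT level as sums. The polarization list was lower (-0.70 and -0.78), with 3 of 14 compared genes past the fold downwards, against 0.559% of all 3934 genes. Retnla made up 45.8% of its sum in the WT mouse, and Socs3 was its most abundant gene in both Aoah-/- mice. Without the cells with 2 or more of Folr2, Cd209f and F13a1 the list differed by 0.07 and 0.03. Of its 3 genes past the fold downwards, Cd163 and Clec10a were then under the minimum level and Retnla was below the fold in Aoah-/- mouse 2 (-0.35) but not in mouse 3 (-2.63). Without the members that held a UMI of any of the 7 peritoneal genes, 2 of its 13 compared genes were past the fold downwards. Nos2 gave 0, 0.350 and 0 CPM, which does not stand for other genes of activation. Socs3 was at 356 and 346 CPM in Aoah-/- mice 2 and 3, and Cd86 at 300 CPM in the WT mouse.

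Complement genes other than C1q had a sum that was close to WT in Aoah-/- mouse 2 (0.02) and lower in Aoah-/- mouse 3 (-0.25). C3, the central component, was at 54.8, 40.1 and 82.9 CPM (-0.76, SD 0.29). The receptors C3ar1 (291, 297 and 327 CPM) and C5ar1 (185, 164 and 211 CPM) were lower in both Aoah-/- mice by less than 2-fold. The residence list was higher by 0.36 and 0.48 through Apoe. Past the fold downwards were 0.559% of all 3934 genes and 5 of the 14 compared genes of this list (Folr2, F13a1, Cd163, Lyve1 and Cbr2). Without the cells with 2 or more of Folr2, Cd209f and F13a1, which the first and second of these genes helped to choose, all 5 fell under the minimum level and were no longer compared. Without the members that held a UMI of any of the 7 peritoneal genes, 3 of its 12 compared genes were past the fold downwards. The monocyte and recruitment list differed by 0.63 and -0.13. Its most abundant gene was Fn1 in Aoah-/- mouse 2, where it moved with the peritoneal-like cells, and S100a6 in the others. Without the members that held a UMI of any of the 7 peritoneal genes the list differed by 0.46 and 0.07. In the remaining members 2 of its 9 compared genes were past the fold upwards, against 0 of 10 over all members. These were Plac8 (123, 74.7 and 33.5 CPM without those members) and Thbs1, thrombospondin 1 (110, 51.5 and 21.2 CPM). Over all members and genes, 7 of 3934 (0.178%) were past the fold upwards, and 2 genes are not read as a result about the list.

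Stress and energy genes differed by small amounts. Heat shock genes were lower as a sum (-0.28 and -0.23), with 9 of 13 below WT in both libraries, and Hspa8 was at 2763, 2504 and 3338 CPM. The sum of these genes was also lower in both Aoah-/- libraries in thick ascending limb cells (5340, 5598 and 6697 CPM) and T cells (6962, 7259 and 9138 CPM). Mitochondrially encoded respiratory genes were lower in 11 of 13 cases in both libraries (-0.14 and -0.18), whereas 30 of 39 nuclear genes of the respiratory chain were above WT in both (0.06 and 0.20). Immediate early genes, which digestion at 37 degrees can raise, were at 22482, 25266 and 24591 CPM as a sum.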

How the data were processed

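For each of 3 libraries, 1 per mouse, the deposited matrix holds raw UMI counts per barcode over 27998 genes. The submitters' processing notes name Cell Ranger 3.1.0, STAR, Seurat 4.2.0 and the mm10 build, while the header of the deposited matrices names cellranger 6.1.2. The lowest UMI total per barcode was 500, 1672 and 500, so 1672 was applied to all. Cells were chosen by fixed gates on counts, without clustering. Doublets were kept, and no caller was run.

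UMIs were summed over the C1q macrophages of each library and divided by their total UMIs (CPM). Intervals (95%) cover counting error only, and the depth of a library sets the floor of 3 counts (0.775, 0.525 and 0.925 CPM). Shares of cells were compared after thinning each cell to 1672 UMIs, the lowest depth kept, so that no cell was left out. Genotypes were compared by fold on log2(CPM + 5) for genes that reached 30 CPM in either genotype and 20 UMIs. Comparison classes were gated on counts too: Ly6c2 monocytes, peritoneal-like and Gpnmb macrophages, thick ascending limb cells (at least 5 UMIs of Slc12a1) and T cells. The monocytes, thick ascending limb cells and T cells were limited to at most 1 UMI of the C1q chains. The steps were tested on simulated counts that varied by counting error alone. Differences between mice and genes whose UMIs lie in few cells were not part of that test. The replicates are separate mice.

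Named genes were the 10 highest by level, the 20 with the largest ratio to other kept cells, 8 in each direction against each class (at least 50 CPM), 12 in each direction between genotypes (at least 50 CPM, ranked by the Aoah-/- library nearer to WT, whose difference had to be wider than the gap between the Aoah-/- libraries), Aoah, the genes of the rule, and members of the gene lists. Ratios to other kept cells were ranked by the lowest of the 3 libraries. The members and the lists were chosen with earlier results of these data known. Of the list genes, 7 are not used here because no row carried their symbol, and 2 were left out because their symbol is repeated. Gene positions are from GENCODE M21. Alternatives were other scalings, pseudocounts, level filters, folds, cell filters and denominators, and leaving out each Aoah-/- library. Python 3.11.15, numpy 2.4.6, pandas 2.3.3 and scipy 1.17.1 were used.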

Additional observations from a re-analysis of the deposited data

How the results depend on the processing

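The difference in the share of C1q macrophages (0.467 percentage points) depended on the cells counted: it was -0.666 with the lowest UMI totals as deposited, -0.376 with 0 UMIs of Lrp2, Slc34a1, Slc12a1 and Cd3g required, -3.09 among cells with a Ptprc UMI and -0.842 among cells without Lrp2, Slc34a1 or Slc12a1. It was 0.937 with at most 20% mitochondrial UMIs, 1.09 when the rule was applied after thinning, and 0.204 to 0.729 with 1 Aoah-/- library left out. The count of higher genes (7) became 12 with a pseudocount of 1 CPM, 3 with at least 100 CPM, 23 with no filter on the level, 42 at a fold of 1.5 and 0 among genes low in thick ascending limb cells. The count of lower genes (22) became 10 with at least 100 CPM, 43 with no filter, 35 at a fold of 1.5, 13 with the mean of values per cell, 14 without the 10% of members with the most UMIs, 11 among genes low in thick ascending limb cells, and 10 without the cells with 2 or more of Folr2, Cd209f and F13a1. With 1 Aoah-/- library left out, 20 to 33 genes were higher and 25 to 36 lower, since 1 library then had to pass the fold. Members without UMIs of other lineages numbered only 154, 151 and 41, and among them 207 genes were higher, 52 lower, Aoah differed by -1.97 and Atp6v1g3 by 1.32 (log2). Aoah was below WT under every alternative run (-1.81 to -1.66 with a library left out). Without the cells with 2 or more of Folr2, Cd209f and F13a1, the polarization list differed by 0.049, Folr2 by 0.72 and F13a1 by 0.45. The values of these genes were set by that choice, since Folr2 and F13a1 chose the cells left out and fell under the minimum level without them. With 1 Aoah-/- library left out the monocyte and recruitment list differed by -0.13 (without replicate 2) to 0.63 (without replicate 3). For named genes 164 values kept to within the spread, 97 moved by more and 3 changed sign; for lists these were 214, 70 and 2. Why the values moved was not tested. No paired analysis was possible because the genotypes share only replicate number 3. Leaving out the members with peritoneal genes, those with 2 or more of Folr2, Cd209f and F13a1, or Gm42418 was chosen after seeing the data. Depth limits what can be read from levels near or under 3 UMIs per library, and the single WT mouse limits every comparison of genotypes.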
